A study of Homo sapiens with 9 samples.

Results

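The genes described here were the 5 APOBEC3 cytidine deaminases APOBEC3B, APOBEC3C, APOBEC3D, APOBEC3F and APOBEC3G together with BST2 and SAMHD1, all of them host restriction factors. They were chosen by gene symbol, and 7 of 7 symbols were found among the 22295 entries of the expression table. U251, an established human glioblastoma line, had been infected with lentivirus carrying an sh-RNA and a red fluorescent reporter, and RNA-seq was made from 9 libraries in 3 groups of 3. In sh-Luci-3d, the control, the sh-RNA was directed against luciferase and cells were collected 3 days after infection. In the other groups it was directed against PTBP1, an RNA-binding splicing repressor, and cells were collected after 3 days in sh-Ptbp1-3d, named here the 3-day knockdown, or after 7 days in sh-Ptbp1-7d, named the 7-day knockdown. All 3 groups therefore carried a lentiviral vector. The paper's protocol moved infected cells to neuronal induction medium with N2, B27, forskolin and dorsomorphin from the second day. Its account of the RNA-seq does not name the medium. A single cell line and a single sh-RNA against PTBP1 stand behind the libraries. No sh-Luci library of 7 days was analysed here. The knockdown, the additional days and any time in the medium therefore cannot be told apart in either comparison with the 7-day knockdown. Both of those comparisons use the same 7-day knockdown libraries.

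Restriction factors are cellular proteins that block steps of viral replication, mostly of retroviruses and endogenous retroelements. APOBEC3 enzymes deaminate cytosine to uracil in single-stranded DNA. APOBEC3D, APOBEC3F and APOBEC3G enter virions and edit the viral cDNA, the small single-domain APOBEC3C acts weakly against HIV-1, and APOBEC3B is a mainly nuclear enzyme known as a source of mutations in tumours. BST2, also called tetherin, is a membrane protein that holds budding enveloped virions at the cell surface. SAMHD1 cleaves dNTPs and so starves reverse transcription, and it is known from myeloid and resting T cells. Many of these genes are induced by interferon.

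On GRCh38 in the GENCODE v29 annotation, the APOBEC3 genes form a cluster on the plus strand of chromosome 22. APOBEC3B lies at chr22:38982347-38992804, APOBEC3C at chr22:39014083-39020352, APOBEC3D at chr22:39021113-39033276, APOBEC3F at chr22:39040604-39053910 and APOBEC3G at chr22:39077005-39087743. BST2 lies at chr19:17402939-17405648 on the minus strand, and SAMHD1 at chr20:36889773-36951901, also on the minus strand. Of the 2363 loci that the authors assembled from the reads, 0 lay within or between the APOBEC3 genes or within 20000 bases of BST2 or SAMHD1.

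The upstream sequence of BST2 is shown because BST2 had the highest level of the 7 genes and carried matches to interferon response motifs. Of the 7 genes, 2 had an entry in the RefSeq promoter table of GRCh38.p14, BST2 and SAMHD1. The 110 bases at chr19:17405671-17405780 are printed 5′ to 3′ on the minus strand and run from position -150 to position -41 relative to the RefSeq start of transcription. Capitals mark matches to the core of the interferon-stimulated response element (GAAA, any 2 bases, GAAA) and to the gamma-activated sequence TTCNNNGAA.
BST2 upstream: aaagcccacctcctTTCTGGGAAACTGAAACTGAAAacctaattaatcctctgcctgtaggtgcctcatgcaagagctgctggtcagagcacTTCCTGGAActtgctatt
Searched on both strands of the 250 bases upstream of the start, the response element core matched at -130 and -124, and these matches overlap each other. TTCNNNGAA matched at -136, where it overlaps the first of them, and at -58. Among 35116 promoters searched over the same length, 3.02% held the response element core and 6.57% held TTCNNNGAA. The 250 bases upstream of the RefSeq start of SAMHD1, of which 193 lie within the GENCODE span of the gene, held 0 matches to either string of letters. A match is a description of letters and not of a bound site.

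Values are FPKM, which divide fragment counts by transcript length and by the mapped total of each library, so levels can be compared between genes per length. FPKM carried no steps of whole reads, the sequencing depth is unknown, and no counting interval can be given. Differences are on the log2(FPKM + 0.1) scale, which understates the change of low genes, and were tested with limma over the 15551 entries with a mean of at least 0.1 FPKM, all 9 libraries in one model and p-values adjusted by Benjamini-Hochberg. A gene was called when its fold change exceeded 2 with an FDR below 0.05 for the 3-day knockdown against the control, or below 0.01 for the comparisons of the 7-day knockdown. The labels do not say that replicates were separate cultures, so p-values measure the spread between these libraries, which may be technical. An exact permutation test of 3 libraries against 3 cannot give a two-sided p below 0.1.

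FPKM sums were 367412 to 404922, and the correlation of log2 values between libraries of a group, across genes, was 0.979 to 0.986. The first principal component held 62.1% of the variance and set the 7-day knockdown libraries apart, while the second, with 8.14%, did not separate the groups of day 3. On the second component the control libraries were spread, at -30.4, -27.2 and 17.7 for replicates 1, 2 and 3. The library 3-day knockdown replicate 3 lay at one end of it, at 31.1. It also stood apart in several neural genes, named after their values were seen. It held STMN2 at 11.5 FPKM and INA at 1.84 FPKM, both listed at 0 in the other 8 libraries, DCX at 2.14 FPKM against at most 0.0346 FPKM elsewhere, and FABP7 at 15.0 FPKM against at most 2.19 FPKM. Without this library 0, 5 and 4 members were called in the 3 comparisons, the same counts as with it. The counts of 5 and 4 include APOBEC3G, which passed the filter on low values only through the 7-day knockdown libraries. The targeted gene PTBP1 was at 115.7 ± 7.58 FPKM in the control, 63.9 ± 2.67 FPKM in the 3-day knockdown and 50.5 ± 0.645 FPKM in the 7-day knockdown (SD, n = 3 each). The glial and glioma markers of the labelled cell type were present in part. In the control the mean was 4168 FPKM for the intermediate filament VIM, 182 FPKM for CD44 and 106 FPKM for SOX2. It was 40.5 FPKM for NES, 38.3 FPKM for SOX9, 10.2 FPKM for EGFR and 1.94 FPKM for FABP7. GFAP and S100B stayed near or below 1 FPKM in every library, and CHI3L1 was listed at 0. Blood cell markers were low, with a sum over 10 lymphocyte markers of 0 to 0.213 FPKM and over 10 myeloid markers of 0.632 to 1.18 FPKM across the 9 libraries.

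**Figure D1:**
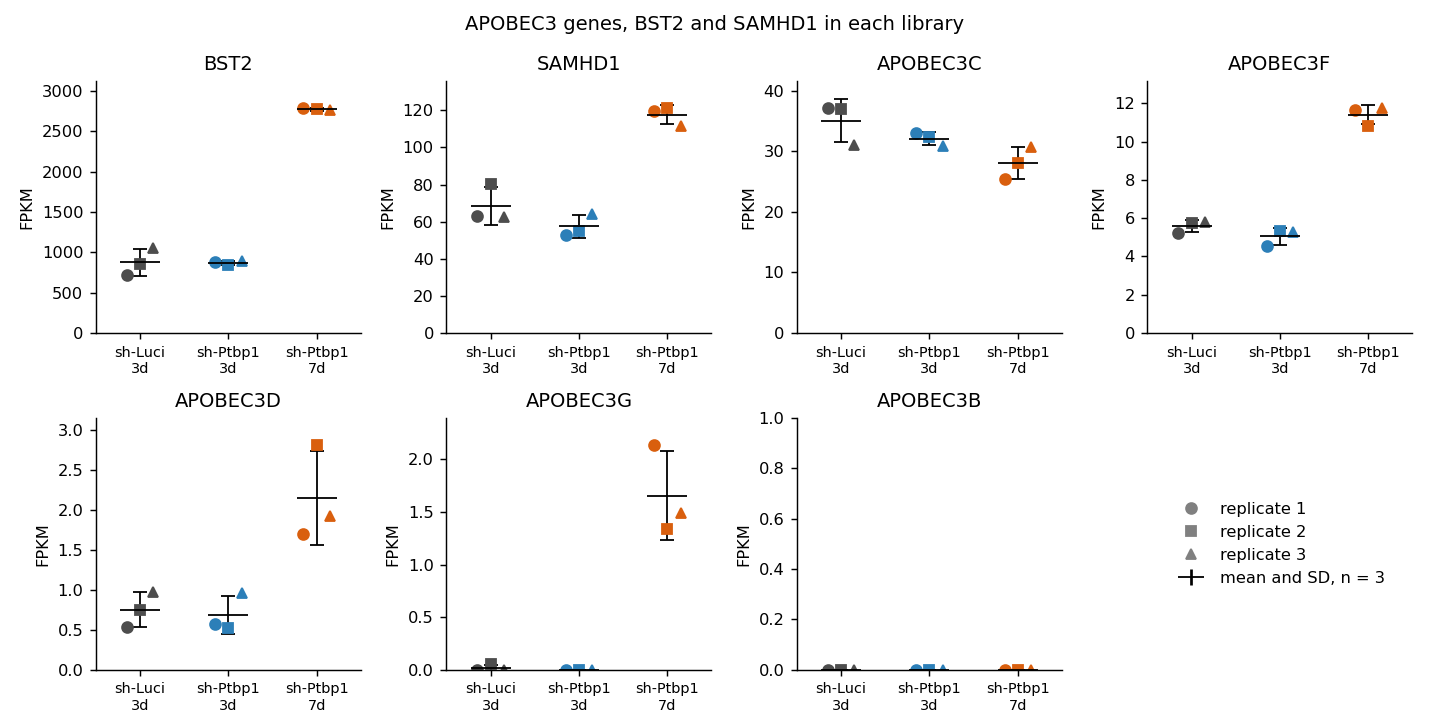
FPKM of the 7 genes in each of the 9 libraries. Each point is a library (symbols give the replicate), and each horizontal line with its error bar is a group mean with its SD over 3 libraries. BST2, SAMHD1, APOBEC3F, APOBEC3D and APOBEC3G were higher in all 7-day knockdown libraries than in any library of day 3, APOBEC3C was lower, and APOBEC3B was listed at 0 throughout.

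The question at 3 days was whether the sh-RNA against PTBP1 changed these genes relative to the sh-RNA against luciferase. By limma, 0 of the 6 members tested were called between the 3-day knockdown and the control, beside 0.0129% of all entries tested. Over all entries 2 of 15551 were called, and the targeted gene PTBP1 was not among them. Its log2 difference of -0.85 (standard error 0.073, limma adjusted p = 0.00314) passed the FDR and not the fold threshold. The paper lists more differing genes for these groups at the same fold and FDR thresholds. A count of 0 therefore does not show that the members were unchanged at 3 days. At an unadjusted p under 0.05 there was 1 member, SAMHD1, beside 7.24% of all entries. The libraries of the 3-day knockdown and the control overlapped for every member, where 10.8% of all entries did not overlap.

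After 7 days, compared with the 3-day knockdown, 5 members rose in the 7-day knockdown by limma, namely BST2, SAMHD1, APOBEC3D, APOBEC3F and APOBEC3G, and 0 fell, beside 8.31% of all entries called higher and 5.9% called lower. Compared with the control, 4 members rose, namely BST2, APOBEC3D, APOBEC3F and APOBEC3G, and 0 fell, beside 8.93% of all entries called higher and 5.68% called lower. In both comparisons 5 members lay higher in the 7-day knockdown without overlap and 1, APOBEC3C, lay lower. Over all entries the corresponding shares were 35.3% higher and 27% lower than the 3-day knockdown, and 32.8% higher and 23.1% lower than the control. APOBEC3G passed the filter on low values only through the 7-day knockdown libraries and so had to differ. Without it, 4 of 5 members rose against the 3-day knockdown and 3 of 5 against the control. The median log2 difference over all entries was 0.0924 against the 3-day knockdown and 0.0993 against the control. Under quantile normalization these medians were -0.010 and -0.016, and the calls split differently, with 1033 of 2105 calls higher against the 3-day knockdown instead of 1293 of 2211, and 1077 of 2191 higher against the control instead of 1388 of 2271. In RNA from whole cultures, fewer cells of a type and less RNA per cell cannot be told apart.

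**Figure D2:**
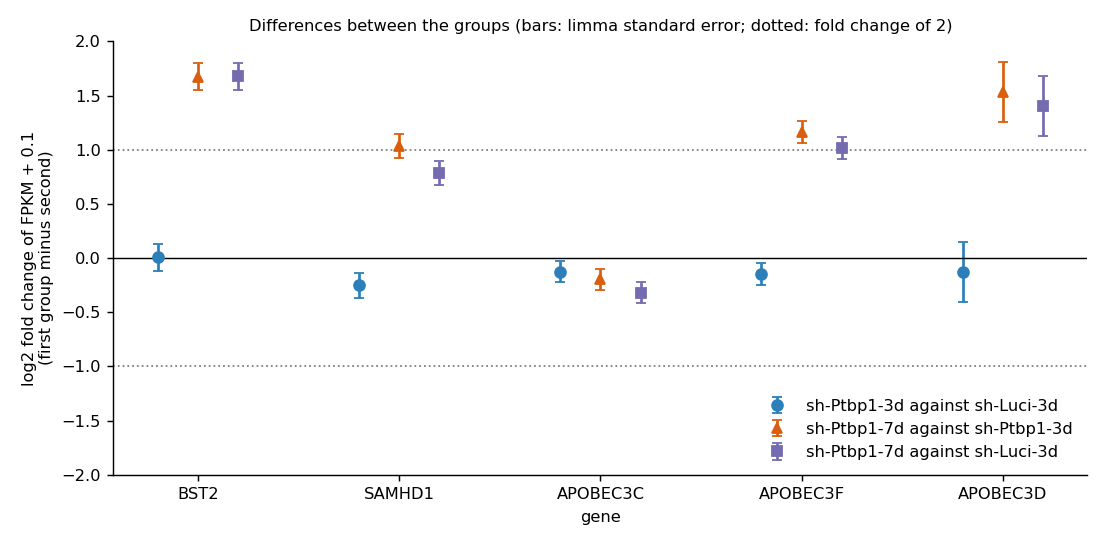
Differences of 5 members in log2(FPKM + 0.1) for the 3 comparisons, with limma estimates as points, standard errors as bars and dotted lines at a fold change of 2. APOBEC3G is left out because it was listed at 0 in most libraries of day 3. The estimates lie between -0.25 and 0.0058 for the 3-day knockdown against the control, and for the 7-day knockdown all but APOBEC3C lie above 0.

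BST2, the tetherin gene, was the most abundant of the 7 genes. It was at 715.9, 860.5 and 1053 FPKM in the control libraries, at 879.6, 837.3 and 891.1 FPKM in the 3-day knockdown libraries, and at 2788, 2771 and 2758 FPKM in the 7-day knockdown libraries. The groups of day 3 overlapped, with the widest spread in the control, and every 7-day knockdown library was far above them. Ranked among all entries of a library, BST2 moved from places 40 to 55 in the control and 42 to 53 in the 3-day knockdown to places 8 and 9 in the 7-day knockdown. The mean of 2773 ± 15.3 FPKM in the 7-day knockdown was 3.19 times that of 869.3 ± 28.4 FPKM in the 3-day knockdown (SD, n = 3 each), a log2 difference of 1.67 (standard error 0.126, limma adjusted p = 1.89e-06). Against the control, at 876.3 ± 168.9 FPKM (SD, n = 3), the log2 difference was 1.68 (standard error 0.126, limma adjusted p = 1.76e-06). At 3 days it was 0.0058 (standard error 0.126, limma adjusted p = 0.996), a value whose sign turned to negative with TPM, median-ratio and quantile scaling and without control replicate 1 (-0.13), 3-day knockdown replicate 1 (-0.0030) or 3-day knockdown replicate 3 (-0.012). Of all entries, 96.3% had a lower log2 difference than BST2 between the 7-day knockdown and the 3-day knockdown.

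SAMHD1, the dNTP hydrolase, was the next in level. Its FPKM values were 63.0, 80.5 and 62.5 in the control, 52.8, 55.1 and 64.4 in the 3-day knockdown, and 119.7, 121.3 and 111.7 in the 7-day knockdown. The highest 3-day knockdown library lay among those of the control, and all 7-day knockdown libraries lay above both groups. Between the 7-day knockdown and the 3-day knockdown the mean rose from 57.4 ± 6.15 to 117.5 ± 5.14 FPKM (SD, n = 3 each), a log2 difference of 1.04 (standard error 0.112, limma adjusted p = 2.55e-05). This value stood close to the 2-fold threshold, and without 3-day knockdown replicate 1 it was 0.98 and no longer called. Against the control, with 68.6 ± 10.3 FPKM (SD, n = 3), the difference of 0.78 (standard error 0.112, limma adjusted p = 0.000188) passed the FDR and not the fold threshold. At 3 days it was -0.25 (standard error 0.112, limma adjusted p = 0.679). SAMHD1 overlaps TLDC2 on the opposite strand, and whether the authors counted by strand is not given in the sources used here.

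Among the deaminases APOBEC3C had the highest level in every library and was the only member tested that was lower after 7 days. It was at 37.1, 37.0 and 31.1 FPKM in the control, at 33.0, 32.3 and 30.9 FPKM in the 3-day knockdown, and at 25.4, 28.1 and 30.7 FPKM in the 7-day knockdown. The 7-day knockdown libraries lay below all others without overlap, but the nearest libraries, at 30.7 and 30.9 FPKM, were almost level. Neither difference was called, with log2 differences of -0.19 against the 3-day knockdown (standard error 0.097, limma adjusted p = 0.119) and -0.32 against the control (standard error 0.097, limma adjusted p = 0.018). At 3 days the log2 difference was -0.13 (standard error 0.097, limma adjusted p = 0.805).

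APOBEC3F, a deaminase with a pair of deaminase domains that is packaged into virions lacking Vif, followed the other direction. Its libraries were at 5.22, 5.74 and 5.78 FPKM in the control, at 4.55, 5.33 and 5.27 FPKM in the 3-day knockdown, and at 11.6, 10.8 and 11.8 FPKM in the 7-day knockdown. The groups of day 3 overlapped and the 7-day knockdown group stood apart. The mean rose from 5.05 ± 0.436 FPKM in the 3-day knockdown to 11.4 ± 0.505 FPKM in the 7-day knockdown (SD, n = 3 each), a log2 difference of 1.16 (standard error 0.0996, limma adjusted p = 4.84e-06). Against the control it was 1.02 (standard error 0.0996, limma adjusted p = 1.26e-05), just past the 2-fold threshold. Without control replicate 1 this difference was 0.97 and without 7-day knockdown replicate 3 it was 0.996, and neither was then called. At 3 days the log2 difference was -0.14 (standard error 0.0996, limma adjusted p = 0.791).

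APOBEC3D was present at a low level with a wide spread. It was at 0.536, 0.744 and 0.974 FPKM in the control, at 0.573, 0.522 and 0.954 FPKM in the 3-day knockdown, and at 1.70, 2.81 and 1.92 FPKM in the 7-day knockdown. The lowest 7-day knockdown library was above the highest of day 3. The log2 difference was 1.53 against the 3-day knockdown (standard error 0.278, limma adjusted p = 0.001) and 1.40 against the control (standard error 0.278, limma adjusted p = 0.00173). With a pseudocount of 1 these values were 0.895 and 0.836 and were not called. At 3 days the log2 difference was -0.13 (standard error 0.278, limma adjusted p = 0.936), and it was positive without control replicate 3 (0.055) or 3-day knockdown replicate 2 (0.017).

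APOBEC3G, the deaminase best known for hypermutating HIV-1 that lacks Vif, was listed at 0 in 5 of the 6 libraries of day 3 and at 0.0512 FPKM in control replicate 2. In the 7-day knockdown it was at 2.14, 1.34 and 1.49 FPKM. Every 7-day knockdown library was thus above every library of day 3. Its test is not given as support, since it passed the filter through these libraries, and no fold is given against groups listed at 0. In the 7-day knockdown the libraries of APOBEC3G and APOBEC3D overlapped in level.

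APOBEC3B was listed at 0 in all 9 libraries and was not tested. Of its neighbours in the cluster, APOBEC3A was listed at 0 in all but control replicate 1, at 0.0229 FPKM, and APOBEC3H reached at most 0.0977 FPKM. In the annotation APOBEC3B overlaps APOBEC3A and the antisense gene APOBEC3B-AS1. Within each group, the means of the other members fell in the order BST2, SAMHD1, APOBEC3C, APOBEC3F, APOBEC3D and APOBEC3G, and only the last pair overlapped between libraries, in the 7-day knockdown.

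The makeup of APOBEC3 transcripts was described as the share of each member in the summed FPKM of the 5 APOBEC3 members. The sum was 41.4 ± 3.15 FPKM in the control, 37.8 ± 0.597 FPKM in the 3-day knockdown and 43.3 ± 2.53 FPKM in the 7-day knockdown (SD, n = 3 each). APOBEC3C made up 84.6% ± 2.25 of it in the control and 84.8% ± 1.67 in the 3-day knockdown, but 64.8% ± 2.44 in the 7-day knockdown (SD, n = 3 each). APOBEC3F held 13.4% ± 1.25 in the 3-day knockdown and 26.4% ± 1.80 in the 7-day knockdown, and APOBEC3D held 1.82% ± 0.660 and 4.96% ± 1.36 (SD, n = 3 each). APOBEC3G, with a share of 0 in the 3-day knockdown, held 3.87% ± 1.19 in the 7-day knockdown (SD, n = 3). The shares of APOBEC3C, APOBEC3F and APOBEC3D lay apart in the 7-day and 3-day knockdown libraries without overlap. Each had an exact permutation p of 0.1, the smallest possible with 3 libraries against 3, and an adjusted value of 0.167 over 15 tests. The test of the APOBEC3G share, which is among the 15, is not given as support, since that gene had to differ. Shares of a library add up to the whole, so a fall of one and rises of others are not separate results. The sum was 5.501 FPKM higher in the 7-day than in the 3-day knockdown, again without overlap and at the smallest possible exact permutation p of 0.1 (adjusted 0.167). It differed from the control by 1.84 FPKM (exact permutation p = 0.5), less than the spread between libraries.

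**Figure D3:**
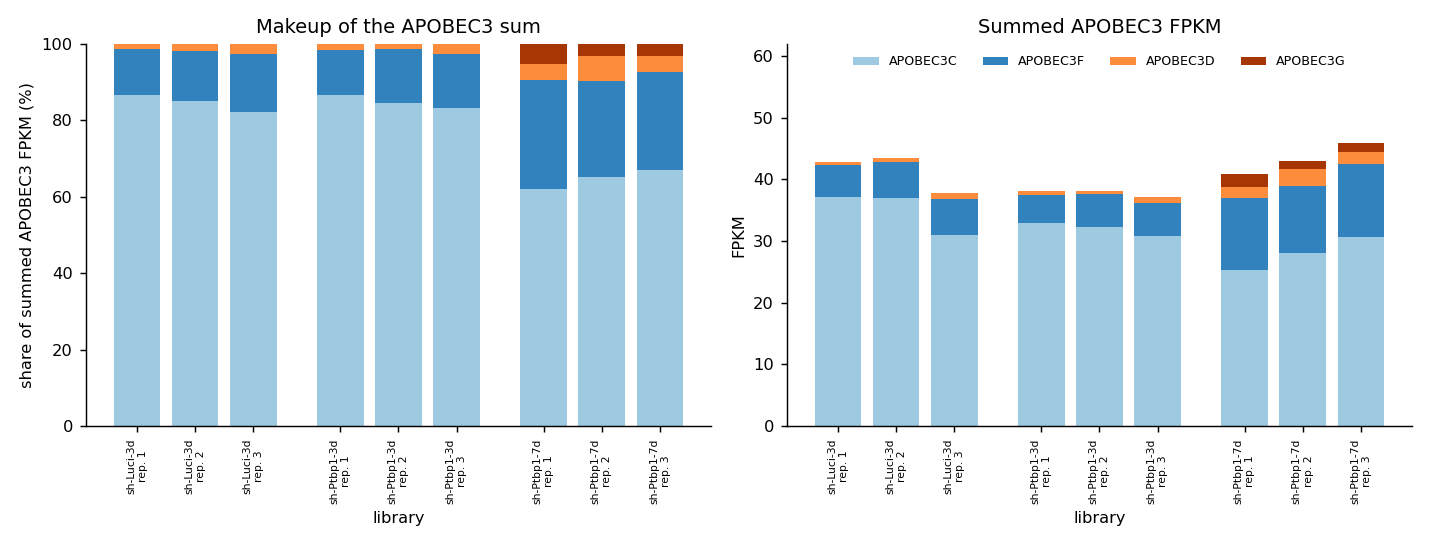
Share of each APOBEC3 member in the summed APOBEC3 FPKM, in percent (left), and the FPKM that make up the sum (right), as stacked bars from 0 for each of the 9 libraries. APOBEC3C held 84.8% of the sum on average in the 3-day knockdown (sh-Ptbp1-3d) and 64.8% in the 7-day knockdown (sh-Ptbp1-7d), where APOBEC3F, APOBEC3D and APOBEC3G had larger shares.

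The APOBEC3 genes arose by duplication and share sequence, so reads can be split between them. Of the 50-base words in the annotated transcripts, 38.7% of those of APOBEC3B also occurred in another gene of the annotation, the readthrough gene AL022318.4 left out, as did 18.7% for APOBEC3D, 21.4% for APOBEC3F and 19.1% for APOBEC3G. APOBEC3C shared 1.16%, SAMHD1 0.477% and BST2 0%. For APOBEC3D the share was 85.8% when AL022318.4, which overlaps both APOBEC3C and APOBEC3D, was included. The levels of APOBEC3B, APOBEC3D, APOBEC3F and APOBEC3G, the listed 0 of APOBEC3B included, are therefore uncertain to the extent that shared reads were divided among them, which was not tested.

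Other genes linked to restriction of viruses or retroelements were compared through a list of 29. It includes MX, IFITM, GBP, TRIM and SERINC genes, but also broader antiviral genes and genes of chromatin silencing. Not all of the 29 therefore act directly against retroviruses. Between the 7-day knockdown and the 3-day knockdown, 12 rose, 1 fell and 16 were not called. Of all entries, 8.31% were called higher and 5.9% lower. The list median was 0.85 on the log2 scale beside 0.0924 for all entries. IFITM1, a membrane protein that hinders fusion of virions with cells, was at 92.2, 100.7 and 141.7 FPKM in the 3-day knockdown and at 3684, 3767 and 4153 FPKM in the 7-day knockdown, a log2 difference of 5.14 (standard error 0.231, limma adjusted p = 5.01e-08). MX2, a dynamin-like GTPase that blocks nuclear import of HIV-1, differed by 4.85 (standard error 0.226, limma adjusted p = 6.34e-08). The call in the other direction was SERINC5, a membrane protein that lowers the infectivity of virions, at 32.4, 33.5 and 31.5 FPKM in the 3-day knockdown and at 4.43, 4.32 and 3.58 FPKM in the 7-day knockdown, a log2 difference of -2.96 (standard error 0.0995, limma adjusted p = 8.07e-09). IFITM1 thus reached a higher level than BST2 in the 7-day knockdown, from a lower one in the 3-day knockdown.

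Families of interferon-stimulated genes were set beside the members. Between the 3-day knockdown and the 7-day knockdown, 8.31% of all entries were called higher. Of the OAS genes and RNase L, which together sense double-stranded RNA and degrade RNA, 4 of 5 rose between the 3-day knockdown and the 7-day knockdown, with a median log2 difference of 2.79. OAS2 differed by 4.17 (limma adjusted p = 3.73e-07) and OASL by 3.15 (limma adjusted p = 3.83e-07). Of the IFIT and IFITM genes 7 of 8 rose, with a median of 2.49, among them IFIT2 with 3.42 (limma adjusted p = 1.64e-06). Of the MX and GBP genes 4 of the 6 tested rose, with a median of 2.43, among them the GTPase GBP1 with 3.23 (limma adjusted p = 4.06e-07). These families share MX, GBP and IFITM genes with the list of 29. Against the control 4 of 5 OAS and RNase L genes, 8 of 8 IFIT and IFITM genes and 4 of 6 MX and GBP genes rose. So did 11 of the 29 restriction factors, and of all entries 8.93% were called higher than the control. The BST2 difference of 1.67 lay below each of these family medians.

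Of 17 tested genes of interferon ligands, receptors and transcription factors, 5 rose between the 3-day knockdown and the 7-day knockdown and 0 fell. The shares over all entries were 8.31% higher and 5.9% lower. The median log2 difference of the 17 genes was 0.29. IRF1, a transcription factor of the interferon response, was at 9.27, 9.0 and 11.5 FPKM in the 3-day knockdown and at 35.9, 39.9 and 37.8 FPKM in the 7-day knockdown, a difference of 1.93 (standard error 0.133, limma adjusted p = 9.81e-07). IFNB1, the interferon beta gene, was listed at 0 in all but 1 library of day 3, at 0.116 FPKM in 3-day knockdown replicate 2, and was at 0.567, 0.294 and 0.762 FPKM in the 7-day knockdown and so passed the filter on low values only through that group. It is counted among the 5 and was not called with a pseudocount of 1 or 0.01. In the 3-day knockdown against the control, 0 genes of any of these lists were called by limma, beside 0.0129% of all entries. With so few calls over all entries, this does not show that the listed genes were unchanged. At an unadjusted p under 0.05 there was 1 of the 29 restriction factors and 1 of the 17 interferon signalling genes. Of all entries, 7.24% were under it.

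Genes tied to the action of SAMHD1 were counted beside the 8.31% of all entries called higher and the 5.9% called lower. Of 17 genes that make or break down dNTPs, 2 rose and 3 fell between the 3-day knockdown and the 7-day knockdown, with a median log2 difference of -0.50. The mitochondrial nucleotide kinase CMPK2, which is also interferon-induced, rose by 2.48 (limma adjusted p = 7.04e-06) and the mitochondrial nucleotidase NT5M by 1.04 (limma adjusted p = 0.00128), which without 3-day knockdown replicate 2 was 0.82 and not called. Thymidine kinase TK1 fell by 2.03 (limma adjusted p = 4.3e-07) and thymidylate synthase TYMS fell by 1.53 (limma adjusted p = 9.64e-08), both enzymes of dNTP supply in cycling cells. SAMHD1 is phosphorylated by cyclin A2 with CDK1 or CDK2, and of 10 genes for such kinase and phosphatase subunits and inhibitors, the cyclin CCNA2 fell by 1.23 (limma adjusted p = 1.71e-06), the inhibitor CDKN1A rose by 1.13 (limma adjusted p = 9.76e-06) and 8 were not called. Among 7 genes mutated, like SAMHD1, in Aicardi-Goutières syndrome, 1 rose, the RNA sensor IFIH1, by 2.48 (limma adjusted p = 3.49e-07). Without control replicate 1, with the 2 groups fitted alone or with a replicate block, 2 were called, each of them higher. Without 3-day knockdown replicate 3 or 7-day knockdown replicate 3, or with median-ratio scaling, 2 were called, 1 higher and the other lower.

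Genes tied to the deaminases were counted for the same comparison, again beside 8.31% of all entries called higher and 5.9% called lower. Of 8 further genes of the AID/APOBEC family 2 passed the filter on low values and 0 were called by limma, with 1 at an unadjusted p under 0.05. Of 13 genes linked to APOBEC3B transcription, 2 rose and 0 fell, while APOBEC3B itself stayed listed at 0. The 2 were the NF-κB subunit RELB, by 1.42 (limma adjusted p = 1.6e-05), and CDKN1A, which is also counted among the genes tied to SAMHD1. Of 12 genes for removal of uracil from DNA 0 were called by limma, with 5 at an unadjusted p under 0.05, beside 56.3% of all entries. Of 12 host genes for ubiquitin ligase components or cofactors that viral antagonists of these factors recruit, 0 were called by limma. An unadjusted p under 0.05 was reached by 7, beside the same 56.3%.

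Markers of other cell types moved in part with time. Their calls stand beside the 8.31% of all entries called higher and the 5.9% called lower. Of the 9 glial and glioma markers tested between the 7-day knockdown and the 3-day knockdown, 2 fell, VIM by 1.91 (limma adjusted p = 9.79e-08) and the adhesion receptor CD44 by 1.41 (limma adjusted p = 1.12e-06), and 1 rose, S100B, which stayed below 1 FPKM and was not called without 7-day knockdown replicate 1 (log2 difference 1.98). The myeloid and lymphocyte markers showed 0 calls by limma. At an unadjusted p under 0.05 were 2 of the 2 tested myeloid genes, beside 56.3% of all entries. The defining leukocyte gene PTPRC did not pass the filter on low values. The summed neuronal markers ranged from 271 to 320 FPKM in the control, 341 to 365 FPKM in the 3-day knockdown and 164 to 170 FPKM in the 7-day knockdown, and TUBB3 made up most of this sum. Of 8 neuronal markers tested 1 fell, the tubulin TUBB3 by 1.42 (limma adjusted p = 6.91e-07), and 0 rose. MAP2 lay the other way, at 18.9, 18.1 and 24.1 FPKM in the 3-day knockdown and 41.4, 41.2 and 34.0 FPKM in the 7-day knockdown without overlap, a log2 difference of 0.94 (limma adjusted p = 0.00058) that passed the FDR and not the fold threshold. SNAP25 was also higher without overlap, by 0.72 (limma adjusted p = 0.0177), and was not called. The count of 1 neuronal call was 3 without 3-day knockdown replicate 3 and 2 without 7-day knockdown replicate 3. The part of these changes in the values of the 7 genes was not tested.

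For each member the 3 genes with the most similar profile over the 9 libraries were sought by Pearson correlation of FPKM among 11340 genes averaging 1 FPKM or more. The correlation is a description, since all points share their libraries and fall for most members into a low group of 6 and a high group of 3. For BST2 these were IFI6 (r = 0.999), PLEKHA4 (r = 0.998) and GLIPR2 (r = 0.997). For SAMHD1 they included the RNA helicases DDX60 (r = 0.994) and DDX58, or RIG-I (r = 0.993). For APOBEC3F they were USP18, which removes ISG15 from proteins (r = 0.995), the chaperone DNAJB11 (r = 0.995) and complement factor CFB (r = 0.994). The profile of APOBEC3G was most like those of SAT1, PPM1K and TBL1X (r = 0.997 each), and that of APOBEC3D most like those of VSIG10L, CGREF1 (r = 0.975 each) and LIN7B (r = 0.974). APOBEC3C, which did not rise, was closest to the proteasome activator PSME3 (r = 0.988), SRP9 (r = 0.984) and MT-ND5 (r = 0.978).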

How the data were processed

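RNA was extracted with TRIzol from U251 cells and sequenced on Illumina HiSeq, with 3 libraries per group, and groups were taken from the labels. After read filtering and comparison with the reference, the authors deposited FPKM values for 19932 gene symbols and 2363 assembled loci. The submitters' processing notes name HISAT2 and GRCh38, and the counting program and read length are not given in the sources used here. The authors also deposited coordinates of the assembled loci, values of another kind, used here for position only. Of 43315 assembled exons, 49.6% equal a GENCODE v29 exon, and 97.6% of the symbols are in that release. Low FPKM values showed no whole-read steps (at most 1.39% of ratios in 1 bin), so depth is unknown and count tests were not used.

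Values were taken as log2(FPKM + 0.1), entries under a mean of 0.1 FPKM were left out (6744 of 22295), and the other 15551 entered a limma 3.58.1 fit (R 4.3.3, intensity trend), after the model was tested on simulated data. The fold and FDR thresholds follow the study's methods, and its threshold for the 7-day knockdown against the 3-day knockdown was also used against the control. Shares were tested with the exact permutation test of scipy 1.17.1 in Python 3.11.15, two-sided. Shared words were counted in GENCODE v29 transcripts, and the promoter sequences are RefSeq's. The text names the 7 members, PTBP1, per list the 2 largest rises and falls called between the 7-day knockdown and the 3-day knockdown, and per member the 3 most similar genes, of which 1 is not reported here. Marker genes used as checks and the neighbours APOBEC3A, APOBEC3H, TLDC2 and AL022318.4 are named as well. The members and the 16 lists were chosen with earlier results of these data known. Alternatives were other pseudocounts, filters, scalings and model designs, and leaving out each library.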

Additional observations from a re-analysis of the deposited data

How the results depend on the processing

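Of 20 alternatives, all kept BST2 called higher in the 7-day knockdown in both comparisons, and APOBEC3F higher than in the 3-day knockdown. The count of members called in the 7-day knockdown against the control, 4, was 2 with a pseudocount of 1, namely BST2 and APOBEC3G. Leaving out 1 library gave 4 to 5 members against the 3-day knockdown and 3 to 4 against the control. All of these counts include APOBEC3G, which had to differ. SAMHD1 against the 3-day knockdown was 0.949 with median-ratio scaling and no longer called. APOBEC3F against the control was not called with a pseudocount of 1 (0.914), median-ratio (0.919) or quantile scaling (0.920). For the 3-day knockdown against the control, the BST2 difference turned to -0.016 with TPM, -0.00695 with median-ratio scaling and -0.061 with quantile normalization, and ranged from -0.13 to 0.15 when 1 library was left out, while APOBEC3D ranged from -0.36 to 0.055. Neither was called in any of these, and the cause was not tested. APOBEC3G was not tested with a mean of at least 1 FPKM. IFNB1 and S100B lost their calls with pseudocounts of 1 and 0.01, and NT5M with a pseudocount of 1, median-ratio and quantile scaling. Over all entries, a pseudocount of 1 lowered the calls from 2211 to 1255 against the 3-day knockdown and from 2271 to 1269 against the control. For the 3-day knockdown against the control the 2 calls became 59 without control replicate 3 and 0 with the 2 groups fitted alone. Same-numbered libraries shared only a number, as their deviations from the group means correlated between -0.032 and 0.051. With the replicate block 0, 5 and 4 members were called in the 3 comparisons, as without it, and APOBEC3G is again counted in the 5 and the 4. FPKM gives no depth, so low values such as those of APOBEC3D and APOBEC3G carry an unknown counting error.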
